A study of Mus musculus with 8 samples.

Results

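The interval described here is the start of mouse chromosome 15, the stretch of DNA that carries Prkaa1, the gene for the AMPKα1 catalytic subunit. Its members were chosen by position alone, as the alternative polyadenylation sites (APSs) listed on chromosome 15 up to position 35000000 of the mouse assembly GRCm38, with Prkaa1 itself left out. The rule gave 472 of the 56483 APSs in the deposited table, and these fell in 100 of 15378 genes. The rest of chromosome 15 held 1716 APSs and Prkaa1 held 2.

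WTTS-seq is a sequencing method for the 3′ ends of RNAs with a poly(A) tail. It was applied to gastrocnemius muscle of knockout (KO) mice for AMPKα1 or AMPKα2 and of wild type (WT) mice for each, and every group held 2 mice with a library each. The AMPKα1 KO mice were AMPKα1-/- and about 6 weeks old. The AMPKα2 KO mice were AMPKα2-/- and about 8 weeks old. No treatment is named for any of the 4 groups, all 8 mice are labelled adult and C57BL/6, and the age of the WT mice is not stated. The methods of the study give 129S2/SvPas in place of C57BL/6 for the AMPKα1 KO mice and C57BL/6 for the AMPKα2 KO mice, and the strain of either WT group is not stated separately. Prkaa2 lies on another chromosome, so the AMPKα2 model served as the comparison in which chromosome 15 was not the targeted one. The models differ in age and possibly in strain, and a difference between them cannot be told apart from a difference between the targeted genes.

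When a gene is targeted in embryonic stem cells of one strain and bred into another, the DNA beside the gene tends to travel with it. Such a flanking segment can hold sequence variants that change the expression of linked genes without any action of the deleted one. A polyadenylation site is set by a hexamer, most often AATAAA or its variant ATTAAA, shortly upstream of the cut, and a gene with several sites can end its RNA at different places. Sites in introns end the RNA early, whereas sites in the last exon set the length of the 3′ untranslated region (UTR).

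By the annotation used, 196 interval APSs (41.5%) were intronic on the sense strand and 88 (18.6%) lay in a 3′ UTR, against 28.7% in a 3′ UTR on the rest of the chromosome. A further 53 lay in other exons, 34 within 2 kb downstream of a gene, 69 outside annotated genes and 32 antisense to one. Protein-coding genes held 357 of the APSs and lncRNA genes 26, and 75 were assigned to no gene. Of the 100 genes, 60 had more than 1 APS.

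The 30 bases that end 5 bases before an APS could be read from annotated transcripts for 152 of the 472 sites. AATAAA was found in 53 of them (34.9%), against 36.1% over the 24722 windows of the whole table. ATTAAA without AATAAA was found in 16 (10.5%), against 9.72%. Only the RNA strand was searched. The windows shown belong to the sites with the lowest unadjusted p between AMPKα1 KO and WT in the site by site test described below. They were not chosen by the size of the difference. Capitals mark an AATAAA hexamer. Positions are on GRCm38 with sequence from GENCODE M21 transcripts, 5′ to 3′ on the RNA strand.
Myo10, chr15:25813641-25813670, plus strand: caaagtctgacAATAAAagatattaatatg
Zfp622, chr15:25997397-25997426, plus strand: atctAATAAAgtcaaaatcatggttgtctt
Brix1, chr15:10476184-10476213, minus strand: gttggtctttttctAATAAAgcatcttaac
Tars, chr15:11383722-11383751, minus strand: caatcaattaggaAATAAAaagattttaaa
Fam134b, chr15:25972312-25972341, plus strand: agtgcttaggggctgtttgtaaagtgaaga
The first 4 belong to sites with fewer reads in the KO libraries and each holds AATAAA. The window of Fam134b, a site with more reads in the KO libraries, holds neither hexamer. A site inside an intron of Ghr, the other one with more reads in KO, had no transcript window.

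The libraries held 2311242 to 3549156 reads, and 10097 to 17715 of them fell in the interval in the AMPKα1 model and 4375 to 6682 in the AMPKα2 model. Reads carry no molecular identifiers, so shares and floors cover counting error only. Replicate libraries differed far more in the AMPKα1 model, where the biological coefficient of variation was 156% against 38.8% in AMPKα2. Of the 96 interval APSs with 50 or more reads in at least 1 AMPKα1 KO library, 31 (32.3%) had no read in the other, and the share over all APSs was 30.4%. The same count was 4 of 68 in the AMPKα1 WT libraries and 0 in both groups of the AMPKα2 model (24 and 26 APSs). All 6 muscle fibre markers had reads in every model, and their summed level was 58020 and 45120 CPM (reads scaled to a common library size) in AMPKα1 KO against 107000 and 71210 in WT. The summed level of 4 adipocyte markers was 2156 CPM in AMPKα1 KO library 2 and 559 to 804 in the other 3 AMPKα1 libraries. KO and WT of this model also lay apart in summed markers of macrophages (78.8 and 79.6 CPM against 43.7 and 67.0), smooth muscle (85.7 and 103 against 114 and 176) and Schwann cells (567 and 458 against 628 and 1160), and overlapped in those of endothelium, erythroid cells and fibroblasts. Whether these differences took part in the results on the interval was not tested.

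**Figure D1:**
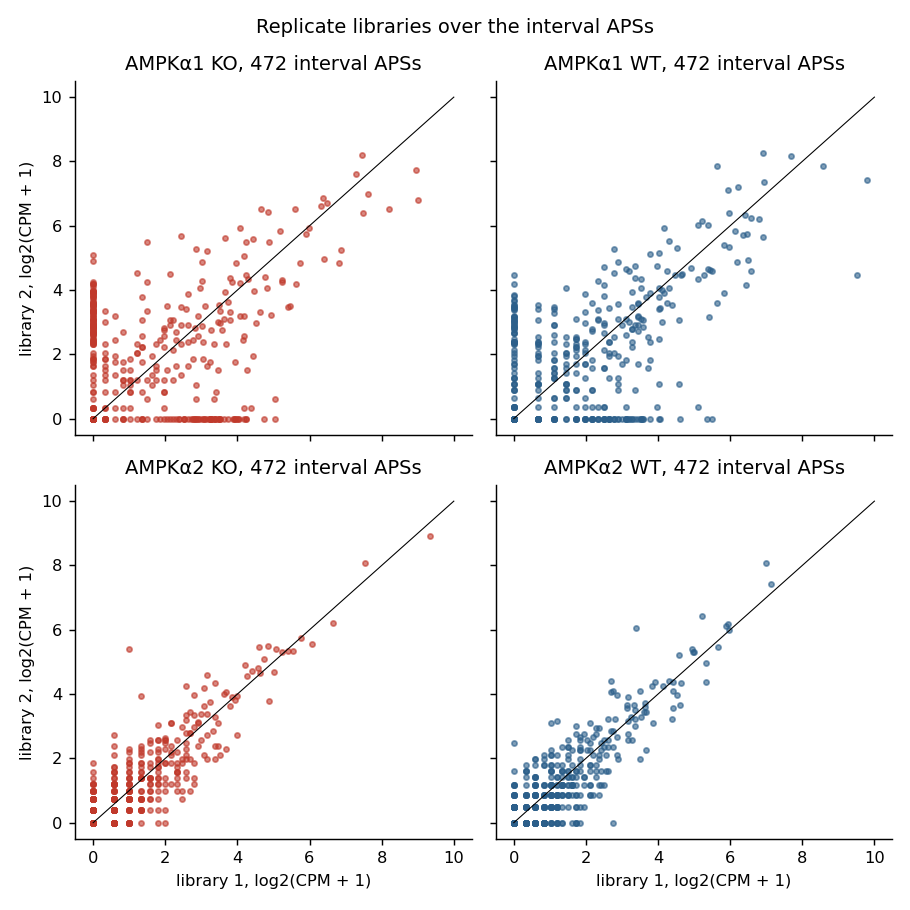
Each panel plots the 472 interval APSs in replicate library 1 (horizontal) against library 2 (vertical) of 1 group, in log2(CPM + 1), with the line of equality. In AMPKα1 KO many sites lie along the axes, read in 1 library and at 0 in the other, and 31 of the 96 deeply read sites are of that kind.

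Reads of Prkaa1 did not check the AMPKα1 labels. Its APS at position 5163362 had 0 and 82 reads in KO against 15 and 0 in WT, and its APS at 5146418 had no read in any of the 4. The study describes a deletion of coding sequence for part of the catalytic domain, so 3′ ends of the gene outside it may still be read, and whether either APS lies in the deleted part was not checked. The gene spans chr15:5143861-5181899 on the plus strand.

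Whether the interval differed between KO and WT mice was first asked site by site in the AMPKα1 model. No APS of the interval passed. Of the 472 APSs, 371 had at least 16 reads over the 4 libraries and were tested. None was higher in KO (background 0.0% of 44024 APSs) and none was lower (background 0.00454%) at an adjusted p under 0.1 in edgeR's quasi-likelihood test with Benjamini-Hochberg adjustment. The lowest adjusted p in the interval was 0.543 by that test. DESeq2 also called 0 interval APSs. Its background was 0.271% called higher and 1.1% called lower, over the 15869 APSs of the whole table to which it gave an adjusted p. How many interval APSs were among these is not given here. With the AMPKα2 libraries in the same fit, sharing 1 estimate of the spread, edgeR called 5 interval APSs lower (background 3.04%) and 0 higher (background 0.516%), and the lower ones were sites of Myo10, Zfp622, Brix1, March6 and Mtdh.

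Below an unadjusted p of 0.05 there were 6 interval APSs, which is 1.62% of those tested, with 2 higher (background 0.691%) and 4 lower in KO (background 2.38%). The share was 3.81% over the rest of chromosome 15 and the background was 3.07% of all APSs, so the interval held no more such sites than the remainder of the chromosome. The median log2 fold change, KO over WT, was 0.17 in the interval, 0.07 on the rest of the chromosome and 0.02 over all APSs. Scaling by library totals alone moved the median of all APSs by 0.36, more than the distance between these medians. Leaving out KO library 2 turned the interval median to -0.38.

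KO and WT libraries did not overlap at 27 interval APSs with KO higher (7.28%, background 9.02%) and at 67 with KO lower (18.1%, background 18.2%). Both shares lay near or below the background. The excess of lower over higher sites was thus common to the whole table.

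**Figure D2:**
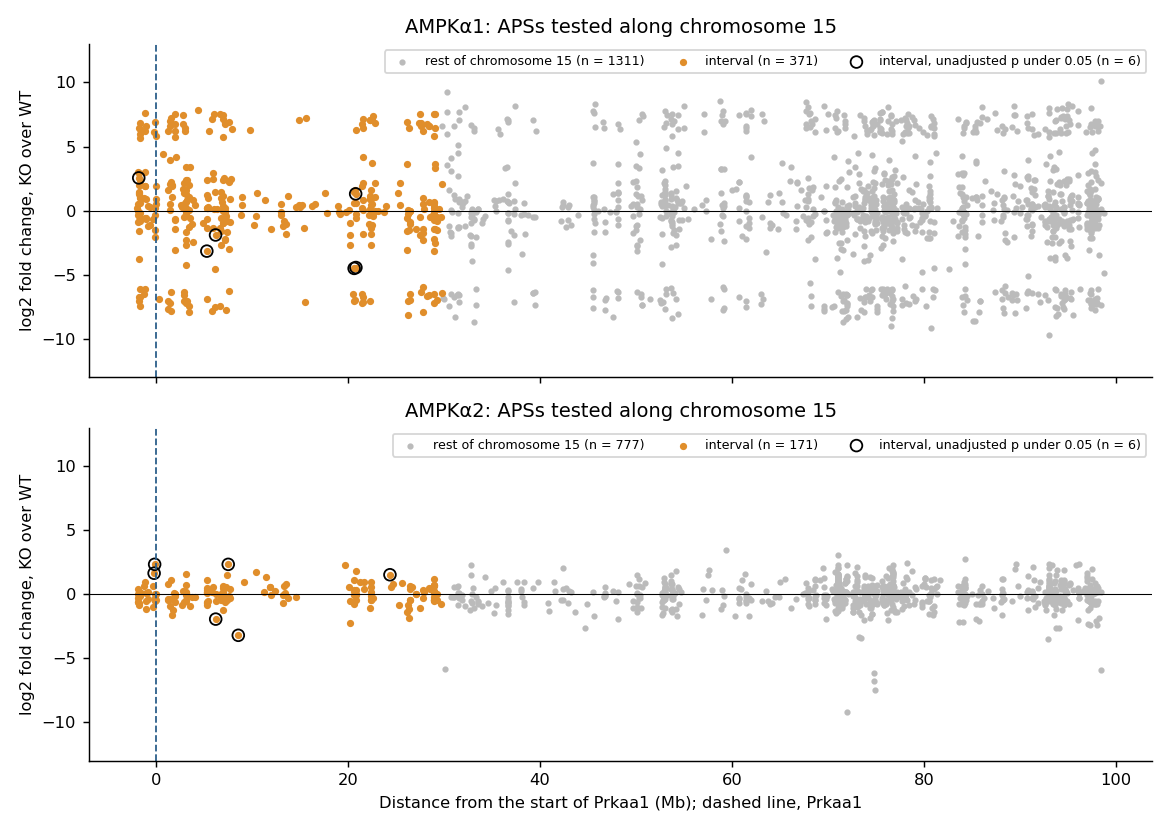
Log2 fold change of KO over WT (vertical) of each tested chromosome 15 APS against its distance from the start of Prkaa1 in Mb (horizontal), with AMPKα1 above and AMPKα2 below. Interval APSs are orange and the rest of the chromosome grey, circles mark the 6 interval sites per model under an unadjusted p of 0.05, and the outer bands in AMPKα1 are sites at 0 in 1 or more libraries.

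The 6 sites named by the unadjusted p are described with reads in KO libraries 1 and 2, then WT libraries 1 and 2. The intronic site of Ghr, the growth hormone receptor, at position 3387752 had 300 and 369 reads in KO against 18 and 68 in WT. Both KO libraries lay above both WT libraries, at 78.6 and 97.2 CPM against 10.5 and 19.3. The log2 fold change was 2.55 (SE 0.76, unadjusted p 0.00389 and adjusted p 0.543 in edgeR's quasi-likelihood test). In the AMPKα2 model this site had only 2 and 5 reads in KO against 4 and 9 in WT, with overlapping groups.

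The 3′ UTR site of Fam134b, a receptor for autophagy of the endoplasmic reticulum, at 25972346 had 1884 and 810 reads in KO against 208 and 580 in WT. Its KO libraries were both higher, at 493 and 213 CPM against 121 and 164, but the gap between KO library 2 and WT library 2 was small beside the gap between the KO libraries. The log2 fold change was 1.31 (SE 0.53). Without KO library 1 it was 0.58.

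Myo10 encodes an unconventional myosin of filopodia. Its site at 25813675, less than 2 kb past the annotated 3′ end on the plus strand, had 4 and 7 reads in KO against 76 and 82 in WT. Levels were 1.05 and 1.84 CPM in KO against 44.3 and 23.2 in WT, with no overlap. The log2 fold change was -4.51 (SE 1.43, adjusted p 0.543 in edgeR's quasi-likelihood test). The AMPKα2 libraries gave 83 and 122 reads in KO against 117 and 93 in WT, at 41.2 and 39.9 CPM against 30.3 and 38.7, with KO slightly above WT.

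Zfp622, a zinc finger protein with a part in maturation of the large ribosomal subunit, lies beside Fam134b. Its only APS, in the 3′ UTR at 25997431, had 0 and 9 reads in KO against 58 and 68 in WT. Both KO libraries were far below both WT libraries, although 1 of them held no read. The log2 fold change was -4.44 (SE 1.90).

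Brix1, a factor of large ribosomal subunit assembly, had 13 and 28 reads in KO against 95 and 147 in WT at its 3′ UTR site 10476179. The groups did not overlap, and the log2 fold change was -3.16 (SE 1.04). Tars, the threonyl-tRNA synthetase, had 27 and 107 reads in KO against 139 and 180 in WT at 11383717. In CPM the groups did not overlap (7.07 and 28.2 against 81.1 and 51.0), and the log2 fold change was -1.90 (SE 0.86).

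None of the sites of Zfp622, Brix1 and Tars separated KO from WT in the AMPKα2 model. There Zfp622 had 13 and 23 reads in KO against 31 and 14 in WT, and Brix1 had 8 and 15 in KO against 10 and 13 in WT. The site of Tars had 17 and 38 reads in KO against 52 and 18 in WT.

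**Figure D3:**
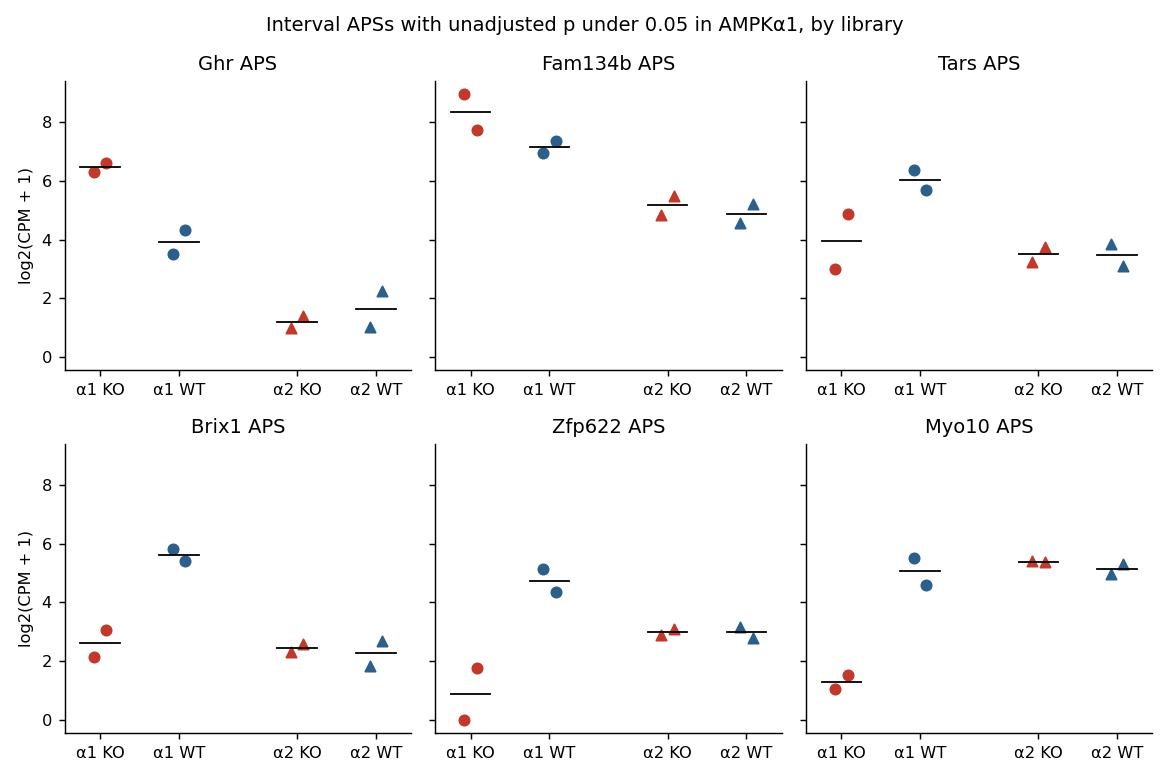
Level of the 6 interval APSs with an unadjusted p under 0.05 in AMPKα1, in log2(CPM + 1), with 1 point per library and a bar at the mean of the 2 libraries (circles, AMPKα1, and triangles, AMPKα2). AMPKα1 KO lies above WT for Ghr and Fam134b and below WT for Tars, Brix1, Zfp622 and Myo10, whereas the AMPKα2 points of KO and WT lie near each other.

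The next sites in the order of p rested on 1 library. March6, a ubiquitin ligase of the endoplasmic reticulum, had a site at 31459173 with 0 and 0 reads in KO against 0 and 75 in WT. The single site of Il7r, the interleukin 7 receptor, had 0 and 66 reads in KO and none in WT. These estimates rest on a single library each.

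Some sites were read in both libraries of one genotype, with at least 3 reads each, and not at all in the other. In AMPKα1 there were 22 interval sites read in WT only (4.66%, background 5.29%) and 3 read in KO only (0.636%, background 1.18%). With at least 10 reads in each library, 7 were read in WT only (1.48%, background 1.9%) and 1 in KO only (0.212%, background 0.772%). The 3 sites read in KO only, all intronic, were those of Zfr with 17 and 25 reads, Cdh12 with 38 and 7, and Gm32618 with 6 and 28. With the mean of the KO libraries set against a floor of 3 reads per library in WT, the Zfr site was at least 4.25-fold higher in KO. Such a fold, here and below, is for group means, and a single library can give less. The floor covers counting error and not the spread between libraries. In AMPKα1 KO, 31 of 96 interval sites with 50 or more reads in 1 library had none in the other.

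Among the sites read in WT only were the 3′ UTR sites of Sdc2, a cell-surface heparan sulfate proteoglycan, with 19 and 26 WT reads, and of Slc1a3, a glutamate transporter, with 18 and 27. By the means of the WT libraries against that floor, the first was at least 11.7-fold and the second at least 11.5-fold lower in KO. An intronic site of Rictor, the defining subunit of mTOR complex 2, at 6794920 had 17 and 29 WT reads and was at least 11.5-fold lower in KO. Npr3, the clearance receptor of natriuretic peptides, had a 3′ UTR site with 12 and 23 WT reads, at least 8.58-fold lower in KO. Fbxl7, an F-box protein, held 3 of the 22 sites, and Ghr, Dab2 and Rictor held 2 each. Other sites of the same gene could still be read, and Sdc2 as a whole had 179 and 185 reads in KO against 132 and 246 in WT. Scaled to library size, the gene stood at 50.9 and 51.1 CPM in KO against 72.1 and 71.3 in WT, so KO lay below WT (log2 fold change -0.49, SE 0.49). The gene model Gm41291, listed as protein-coding and with a single site, had no read in KO and 8 and 23 in WT.

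In AMPKα2, 2 interval sites were read in WT only (0.424%, background 0.266%), and none in KO only (background 0.0336%). They were an intronic site of Nipbl with 8 and 3 WT reads and the Il7r site with 10 and 5. With at least 10 reads in each library there was none in either direction (background 0.00885% in KO only and 0.023% in WT only).

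Reads were then summed per gene. In AMPKα1, 92 interval genes were tested, and none was called higher (background 0.0% of 13941 genes) or lower (background 0.0%) by edgeR's quasi-likelihood test. Brix1 was the only gene under an unadjusted p of 0.05, which is 1.09% of the interval genes against 6.0% on the rest of the chromosome and a background of 4.21%. DESeq2 called no interval gene higher (background 0.287% of the 10095 genes to which it gave an adjusted p) or lower (background 0.941%). KO and WT did not overlap for 11 genes with KO higher (12%, background 13.6%) and 16 with KO lower (17.4%, background 18.9%).

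Genes listed under ribosome assembly and translation were lower in the AMPKα1 KO libraries by their estimates, without passing the test. The list also holds Cct5, a chaperonin subunit. Of the 7 in the interval, 6 were tested, all 6 had negative log2 fold changes, 0 passed and 1 had an unadjusted p under 0.05. The median was -1.26 against -0.03 over all genes, and for 4 of the 6 the KO libraries lay below both WT libraries. Over all genes tested, 18.9% lay apart in that direction and 4.21% had an unadjusted p under 0.05. The list was drawn up with earlier results of these data known, so its count is a description. The groups of the AMPKα1 model also differed in muscle fibre markers, and in other cell type markers, as given above. In bulk tissue, fewer cells of a type and less RNA per cell cannot be told apart.

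Brix1 as a gene stood at 3.70 and 7.74 CPM in KO against 57.9 and 45.5 in WT (log2 fold change -3.17, SE 0.81, adjusted p 0.763 in edgeR's quasi-likelihood test). Zfp622 stood at 0 and 2.49 CPM in KO against 31.7 and 19.7 in WT, and Tars at 7.68 and 29.6 in KO against 75.9 and 52.2 in WT. Cct5, a subunit of the cytosolic chaperonin, was closer between the groups, at 26.5 and 55.3 CPM in KO against 78.7 and 58.0 in WT. Rpl37, a protein of the large ribosomal subunit, overlapped at 51.2 and 94.5 CPM in KO against 89.0 and 77.1 in WT, and Dnajc21, a co-chaperone of ribosome assembly, overlapped too. Rpl37 and Rpl30 have near-identical copies elsewhere in the genome, so their counts are uncertain, and Rpl30 had no read in AMPKα1.

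In AMPKα2 the same list had 3 positive and 4 negative estimates among 7 tested genes, with a median of -0.08 and 0 passing. Brix1 stood at 5.72 and 5.94 CPM in KO against 3.23 and 6.16 in WT. Without AMPKα1 KO library 1 the AMPKα1 median was -0.71, and without KO library 2 it was -2.21. Of the 6 AMPKα1 estimates, 1 was positive with library totals, and 1 each without KO library 1 and without WT library 2.

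**Figure D4:**
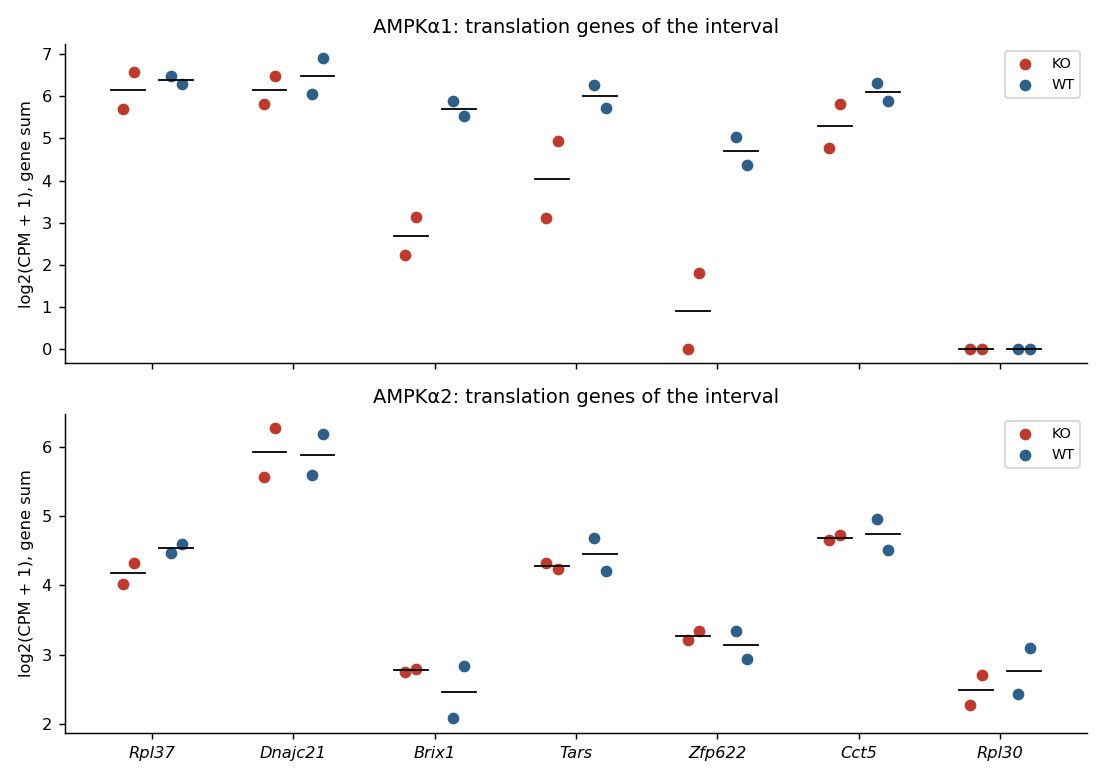
Gene sums in log2(CPM + 1) of the 7 interval genes on the translation list, in order of position. There is 1 point per library and a bar at the group mean. In AMPKα1 (above) Brix1, Tars, Zfp622 and Cct5 have both KO libraries below both WT libraries, and in AMPKα2 (below) KO and WT points overlap for all but Rpl37.

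Receptors for hormones, cytokines and growth factors had 4 positive and 1 negative estimate among 5 tested in AMPKα1, with 0 passing and a median of 1.01. Ghr was the only one without overlap. The gene had 1155 and 1489 reads in KO against 262 and 772 in WT, at 329 and 411 CPM against 143 and 224 (log2 fold change 1.01, SE 0.42, adjusted p 0.763 in edgeR's quasi-likelihood test). Osmr, the oncostatin M receptor, had 159 and 0 reads in KO against 17 and 27 in WT, and Lifr, the leukemia inhibitory factor receptor, overlapped at 11.9 and 37.3 CPM against 15.8 and 27.0. In AMPKα2 the list had 1 positive and 3 negative estimates among 4 tested, and Ghr stood at 36.3 and 28.1 CPM in KO against 49.2 and 36.0 in WT. The direction of the AMPKα1 list rested on KO library 2, without which its median was 0.00.

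In AMPKα1, KO and WT overlapped for all but 1 of the 8 genes listed under mitochondria and metabolism. Oxct1, the enzyme that lets muscle use ketone bodies, had more reads over the 8 libraries than any other interval gene. Its levels were 569 and 263 CPM in AMPKα1 KO against 568 and 543 in WT, and 113 and 103 in AMPKα2 KO against 118 and 120 in WT, where KO lay just below WT. Mtdh, metadherin, is on this list without being a metabolic enzyme, and stood at 361 and 377 CPM in AMPKα1 KO against 356 and 553 in WT. Of the 8 listed genes tested in AMPKα1, 3 estimates were positive, 5 negative and 0 passed, with a median of -0.33. Without KO library 2 or WT library 2 it turned to 5 positive and 3 negative, with medians of 0.05 and 0.09. Cmbl, a hydrolase, was the one without overlap, at 71.4 and 63.0 CPM in KO against 73.2 and 167 in WT. In AMPKα2, 3 of the 6 tested did not overlap, with Ank, a membrane protein of pyrophosphate transport, and Cpq, a carboxypeptidase, higher in KO and Oxct1 lower, and 0 passed.

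For genes listed under RNA processing, transcription and chromatin, 4 estimates were positive and 3 negative of 7 tested in AMPKα1, with 0 passing. Nipbl, which loads cohesin onto DNA, stood at 199 and 190 CPM in KO against 191 and 85.8 in WT. Zfr, a zinc finger protein that binds RNA, stood at 171 and 176 CPM in KO against 108 and 240 in WT. Rad1, a subunit of the DNA damage clamp, was higher in both KO libraries, at 28.7 and 21.3 CPM against 14.2 and 4.64, with a log2 fold change of 1.42 (SE 1.10). Drosha, which starts microRNA maturation, ranged from 4.84 to 53.3 CPM within KO and from 17.1 to 86.8 within WT.

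Kinases, adaptors and small GTPase regulators had 6 positive and 6 negative estimates among 12 tested in AMPKα1, and 0 passed. Mtmr12, a myotubularin-related adaptor, had 40 and 53 reads in KO against 3 and 0 in WT, the largest estimate of the list. That estimate, 4.01 on the log2 scale with an SE of 2.45, did not pass, and the gene had at most 1 read per library in AMPKα2. Rictor overlapped in both models.

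Genes of membrane trafficking, ubiquitin and the endoplasmic reticulum had 2 positive and 7 negative estimates among 9 tested, with 0 passing. Fam134b stood at 688 and 258 CPM in AMPKα1 KO against 232 and 242 in WT, a separation that rested on the first KO library. March6 overlapped, at 138 and 53.9 CPM in KO against 117 and 122 in WT. In AMPKα2 March6 stood at 19.7 and 20.2 CPM in KO against 23.4 and 44.1 in WT, with an unadjusted p of 0.0583 and an adjusted p of 0.604 in edgeR's quasi-likelihood test.

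Genes of matrix, adhesion and cytoskeleton had 9 positive and 5 negative estimates among 14 tested in AMPKα1, with 0 passing. Matn2, a matrilin of the extracellular matrix, stood at 12.2 and 13.5 CPM in KO against 30.6 and 31.3 in WT (log2 fold change -1.26, SE 0.83). Cdh10, a cadherin with a single listed site, spread widely within both groups, at 557 and 116 CPM in KO against 45.3 and 239 in WT. Myo10 as a gene was less apart than its 3′ end site, at 1.14 and 30.4 CPM in KO against 68.3 and 35.1 in WT. Of the 7 role lists, the translation list alone kept the sign of its AMPKα1 median in every alternative run. Among others, the sign turned without KO library 2 for RNA processing (-0.03) and matrix (-0.55, and -0.05 without KO library 1), and with library totals for kinases (0.05) and trafficking (0.13).

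The genes nearest to Prkaa1 are those that a flanking segment would hold in most cases. On the lower side, C7, a component of complement, had 42 and 46 reads in AMPKα1 KO against 17 and 2 in WT, without overlap, and a log2 fold change of 1.33 (SE 1.87). Its levels were 11.95 and 12.71 CPM in KO against 9.285 and 0.58 in WT, so WT library 1 lay near KO. Card6, a protein with a caspase recruitment domain, had 0 and 8 reads in KO against 16 and 0 in WT. Gm10250, a gene model that may have copies elsewhere, had 684 and 319 reads in KO against 1243 and 75 in WT, so its WT libraries lay on both sides of KO. On the higher side, Ttc33, a tetratricopeptide repeat protein, had 113 and 67 reads in KO against 19 and 20 in WT (log2 fold change 1.65, SE 1.08). Gm15937 and 5430437J10Rik were each read in 1 AMPKα1 library only, with 16 and 33 reads. Dab2, an endocytic adaptor, had 8 and 190 reads in KO against 44 and 56 in WT. C7 and Ttc33, on opposite sides of Prkaa1, both had higher KO libraries, and neither passed the test.

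Along the chromosome, no 5-Mb window near Prkaa1 stood apart. The window from 5 to 10 Mb, which holds Prkaa1, had 83 APSs tested in AMPKα1, 0 under an unadjusted p of 0.05 and a median log2 fold change of 0.52. The window below it had 52 tested, 1 under 0.05 and a median of 0.57. Medians as high or higher were found far from Prkaa1, at 0.79 from 70 to 75 Mb and 0.63 from 65 to 70 Mb. The median from 30 to 35 Mb was -0.38, with KO lower at 21 (27.6%, background 18.2%) and higher at 4 (5.26%, background 9.02%) of 76 sites without overlap. The windows of the interval thus took both signs.

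Summed reads of the interval were 4638 and 4180 CPM in AMPKα1 KO against 5887 and 4499 in WT, with overlapping groups. The log2 ratio of the means was -0.24 (exact permutation p 0.667, two-sided, where 0.333 is the smallest that 2 against 2 allows). The rest of chromosome 15 gave -0.39. Scaling by library totals turned the direction, to 0.15. One unassigned APS at 18385305 held 6.53% of the interval reads of this model, with 667 and 1108 reads in KO against 1509 and 603 in WT.

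How genes divided their reads among their sites was followed in the 45 interval genes with at least 2 APSs and 200 reads. The leading site of a gene was the one with most reads over the 8 libraries. A site could thus lead through the group in which its share was high, here and in the background. In AMPKα1, where 42 of them had a share in every library, the share of the leading site was higher in both KO libraries for 10 genes (23.8%, background 16.2% of 5691 genes) and lower in both for 6 (14.3%, background 15%). The median distance between KO and WT means was 10.9 percentage points, less than the median distance between the replicates, 14.7 points in KO and 18.0 in WT. In AMPKα2 the leading site was higher in both KO libraries for 5 of 45 genes (11.1%, background 13.2%) and lower for 10 (22.2%, background 20.3%).

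Among these 16 genes, the gap between the groups in AMPKα1 was widest for Ankrd33b, an ankyrin repeat protein with 221 reads in all, at 47.1 points. Laptm4b, a lysosomal membrane protein with 1010 reads, had a gap of 29.2 points, and its 3′ UTR site at 34284302 took 55.7% and 63.7% in KO, 92.9% and 94.9% in WT and 88.9% to 93.5% over the AMPKα2 libraries. Golph3, a Golgi protein, placed 89.9% and 88.5% at its leading 3′ UTR site in KO and 69.3% and 62.2% in WT. Ghr had a gap of 16.0 points. Its intronic site at 3387752 took 26.0% and 24.8% of Ghr reads in AMPKα1 KO, 6.87% and 8.81% in WT, and 2.38% to 11.8% over the AMPKα2 libraries. The intronic site held 775 reads in all, 300 and 369 of them in AMPKα1 KO, so it led through the group where it was high. The share of the 3′ UTR site of Ghr at 3317760 overlapped, at 19.6% and 13.3% in KO against 11.1% and 27.2% in WT. In both WT libraries that share was above the share of the intronic site. The window of that 3′ UTR site reads as follows, again with AATAAA in capitals.
Ghr, chr15:3317765-3317794, minus strand: ttcccttcaaagttcAATAAAtttattttc
Fam134b placed 78.0% and 86.6% of its reads at 25972346 in AMPKα1 KO against 48.9% and 69.6% in WT. The second site, at 25973690, took 17.8% and 11.3% in KO against 47.8% and 20.8% in WT, so the longer RNA had the smaller share in KO. The AMPKα2 model gave 65.1% and 63.2% in KO against 53.7% and 57.0% in WT at the first site, also without overlap. Oxct1 split its reads between a pair of sites at the 3′ end, and the leading one took 56.1% and 36.3% in AMPKα1 KO against 63.0% and 43.1% in WT. Pdzd2, a protein with several PDZ domains, placed 86.5% to 91.9% of its reads at an intronic site at 12440832 in the AMPKα2 libraries and 9.26% to 23.0% in the AMPKα1 libraries, in KO and WT alike. Shares of Myo10 in AMPKα1 KO rest on 4 and 110 reads.

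**Figure D5:**
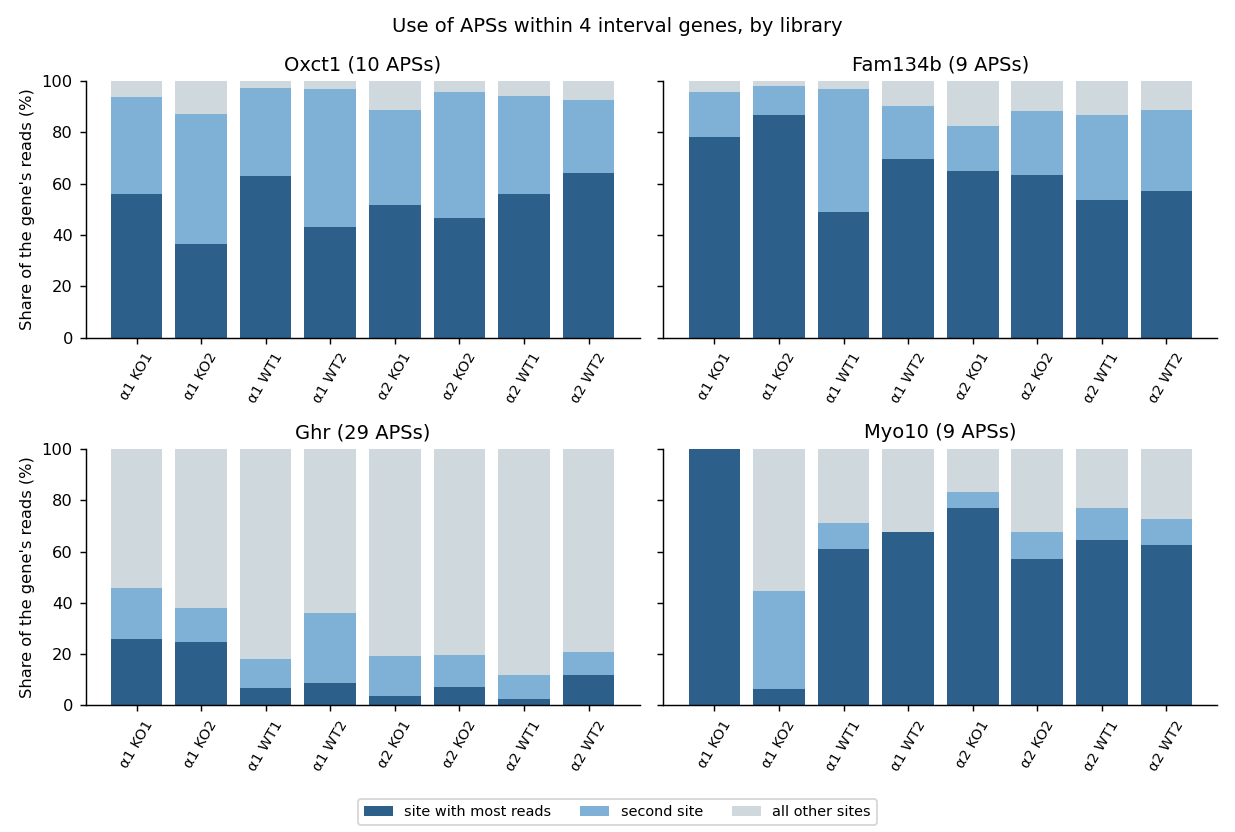
Share of the reads of Oxct1, Fam134b, Ghr and Myo10 at the site with most reads, at the second site and at all others (stacked, in percent) in each of the 8 libraries. The leading Ghr site, which is intronic, takes 24.8% or more in both AMPKα1 KO libraries and 11.8% or less in the other 6. It ranks first through its reads in those KO libraries. The first Myo10 bar rests on 4 reads.

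In the AMPKα2 model, where chromosome 15 was not the targeted one, 171 interval APSs were tested and none was called higher (background 0.0258% of 23218 APSs) or lower (background 0.0301%) by edgeR's quasi-likelihood test. Under an unadjusted p of 0.05 there were 6, which is 3.51% against 6.69% on the rest of the chromosome and a background of 7.6%. Of these, 4 were higher (background 5.12%) and 2 lower (background 2.49%). The median log2 fold change was -0.01. Libraries were apart at 26 sites with KO higher (15.2%, background 18.8%) and 28 with KO lower (16.4%, background 20.9%). At gene level 0 of 68 tested passed (backgrounds 0.37% higher and 0.313% lower), and 3 had an unadjusted p under 0.05 (4.41%, background 8.55%). DESeq2 called no gene of the interval higher (background 0.819% of the 6956 genes to which it gave an adjusted p) or lower (background 0.359%). KO and WT did not overlap for 8 genes with KO higher (11.8%, background 18.8%) and 17 with KO lower (25%, background 20.5%).

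DESeq2 called 1 interval APS higher in AMPKα2 KO (background 1.82% of the 4441 APSs to which it gave an adjusted p) and 0 lower (background 0.338%). It is an unassigned site at 29542334 on the minus strand, outside annotated genes. It had 1291 and 1481 reads in KO against 485 and 646 in WT, and no read in any AMPKα1 library. Levels were 641 and 485 CPM in KO against 125 and 269 in WT, without overlap (log2 fold change 1.51, SE 0.42, adjusted p 0.572 in edgeR's quasi-likelihood test and 0.0833 in DESeq2). This site held 17.6% of all interval reads of the model. Summed interval reads were 2172 and 2186 CPM in KO against 1653 and 1949 in WT (log2 ratio 0.27, exact permutation p 0.333), and without this site the ratio was 0.01 (exact permutation p 0.667).

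The other 5 sites under an unadjusted p of 0.05 in AMPKα2 had few reads. Higher in KO were an intronic site of C7 at 5042065 with 10 and 10 reads against 4 and 1, a site of C7 just past its 3′ end at 4987752 with 13 and 13 against 9 and 2, and an intronic site of Pdzd2 at 12704420 with 7 and 11 against 1 and 3. Lower in KO were an intronic site of Tars at 11399452, with 1 and 3 reads against 10 and 9, and an unassigned site at 13752472, with 1 and 1 against 4 and 18. None of the 5 passed the adjusted threshold, and the lowest adjusted p among them was 0.626 in edgeR's quasi-likelihood test. In AMPKα1 each of the 5 had 3 reads or fewer in at least 2 libraries.

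C7 had the lowest p of the interval genes in AMPKα2. It had 25 and 30 reads in KO against 17 and 4 in WT, at 15.9 and 11.9 CPM against 4.98 and 1.90 (log2 fold change 1.90, SE 0.50, adjusted p 0.23 in edgeR's quasi-likelihood test). The summed level of 4 fibroblast markers overlapped, at 2699 and 1497 CPM in KO against 1214 and 1646 in WT, and its part in the level of C7 was not tested. Basp1, a membrane protein of the cell cortex, had 3 and 10 reads in KO against 32 and 11 in WT (log2 fold change -1.26, SE 0.56). Gm16374, a gene model near C7, had 12 and 21 reads in KO against 40 and 39 in WT (log2 fold change -0.89, SE 0.40). C7 was thus higher in both KO libraries of either model. Neither passed by the test as described, and without a count filter C7 passed in AMPKα2 (adjusted p 0.0107 in edgeR's quasi-likelihood test).

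An interaction of genotype and model over the 8 libraries tested whether the KO effect on a site was unlike in the 2 models. This fit shared 1 estimate of the spread between the models, although the biological coefficient of variation was 156% in AMPKα1 and 38.8% in AMPKα2. The AMPKα1 spread may therefore be understated in it. Of 472 sites, 1 passed (background 0.143% of 56483 APSs). It was the Myo10 site at 25813675, whose AMPKα1 effect minus AMPKα2 effect was -4.77 on the log2 scale (SE 0.84, adjusted p 0.0442 in edgeR's quasi-likelihood test). Its AMPKα1 KO libraries, with 4 and 7 reads, were the only low ones of the 8. The call was lost without AMPKα1 WT library 1 (adjusted p 0.134), without any one of the AMPKα2 libraries (0.603 to 0.845), with the replicate block (0.248), with at least 10 reads in 4 or more libraries (0.126) and with library totals as the scale (0.757). Under an unadjusted p of 0.05 there were 27 interval sites, 5.72% against 7.05% on the rest of the chromosome and a background of 6.96%.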

How the data were processed

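The authors read the WTTS-seq libraries on an Ion PGM, cut off leading Ts, kept trimmed reads from 16 bases up, aligned these with TMAP to GRCm38.p5 (per the labels), merged sites within 24 nt and used Cuffcompare for gene assignment. Deposited values are raw counts of reads per APS and library, listed where the sum over 8 libraries was at least 16. Members were taken by position, and gene sums add all APSs assigned to a gene. The sum of Stk3 therefore also holds sites past position 35000000.

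Counts were fitted over the whole table with edgeR 4.0.16 (limma 3.58.1, R 4.3.3): TMM scaling, robust quasi-likelihood test, at least 16 reads over the 4 libraries of a model, Benjamini-Hochberg adjustment over all features and a threshold of 0.1. Standard errors were derived from the test statistic. CPM use the library sums and TMM factors of the site or gene table, and the gene table leaves out sites assigned to no gene. A gene with 1 site therefore has different values in each, and CPM of a site and of a gene are not on the same scale. DESeq2 1.42.0 was the alternative tool. A difference between models was the interaction of genotype and model. Other alternatives were RLE factors, library totals, other count filters, a replicate block, all 8 libraries in 1 fit and each library left out. The fits were tested on simulated counts. Locations came from GENCODE M21. A fold against 0 reads set the mean CPM of the group with reads against the mean of a floor of 3 reads per library in the other group.

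Named were the genes nearest to Prkaa1, the most deeply read, those with the lowest p in each model and direction, any call, and the members of 7 role lists. Other genes named for site shares, for sites at 0 or for groups that did not overlap were chosen after their values were seen. The interval, the lists and the rule were chosen with earlier results of these data known. Each mouse gave 1 library, so p-values rest on 2 mice per group. In edgeR the spread was estimated over all libraries of a fit, with information shared between features. Depth was 2311242 to 3549156 reads, so 3 reads correspond to 0.845 to 1.30 CPM by library totals.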

Additional observations from a re-analysis of the deposited data

Results flagged for a closer look

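As fitted, the KO effect at the Myo10 site (position 25813675) differed between the models, by -4.77 on the log2 scale in the test of the difference itself (edgeR's quasi-likelihood interaction test, adjusted p 0.0442). That test shared 1 estimate of the spread between the models, although the AMPKα1 libraries varied far more. In the fit of the AMPKα1 libraries alone the site did not pass. Reads were 4 and 7 in AMPKα1 KO, 76 and 82 in AMPKα1 WT, 83 and 122 in AMPKα2 KO and 117 and 93 in AMPKα2 WT. Over the alternatives the value ran from -5.15 to -4.09 and the adjusted p from 0.000828 to 0.845. The call was lost with library totals, the stricter filter, the replicate block, without AMPKα1 WT library 1 and without any one of the AMPKα2 libraries, and was kept with DESeq2 and without each of the other 3 AMPKα1 libraries.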

How the results depend on the processing

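The 2 libraries per group and the spread between AMPKα1 libraries limit every count. In AMPKα1, all 8 libraries in 1 fit called 5 interval APSs lower (Myo10, Zfp622, Mtdh, Brix1 and March6; background 3.04%). The share of interval APSs under an unadjusted p of 0.05 was 5.98% with at least 10 reads in 2 libraries, 0.809% with the replicate block, 10.2% in the 8-library fit, 3.69% with DESeq2, and 0.809% (without WT library 1) to 7.82% (without KO library 2) with a library left out. The median log2 fold change of the AMPKα1 interval APSs was 0.53 with library totals, -0.05 with the stricter filter and -0.38 to 0.45 with a library left out, and the AMPKα2 one -0.16 on sense sites alone. Summed reads of the interval took the opposite sign with library totals, 0.153, and a Ghr site at 3554621 ran from -2.82 (without KO library 2) to 8.76. Sites at 0 in one genotype numbered 8 at 10 reads in AMPKα1 and 0 in AMPKα2. In AMPKα2, 1 APS was higher without a count filter, with the replicate block and with DESeq2, and 1 was lower without a filter. The share under 0.05 was 0.585% in the 8-library fit, 0.721% with DESeq2 and 4.09% to 6.43% with a library left out, and sites with libraries apart were 29.0% with the stricter filter. Genes called numbered 2 without a filter (C7 and Il7r) and 0 to 3 with a library left out, the 3 (Adamts12, Pdzd2 and March11) without WT library 2. Interaction calls were 0 with library totals, the stricter filter and the replicate block, and 0 to 11 with a library left out, 11 without AMPKα1 KO library 2 and 7 without KO library 1. Apart from the APSs called lower in the 8-library fit, the share over all features in the same run was not set beside these values. That share also moves with the run. Over all AMPKα1 APSs, 3.04% were called lower in the 8-library fit and 0.00454% in the fit as described. The values thus show how counts depend on processing and are not results about the interval. The causes of these changes were not tested. Replicate numbers did not pair the libraries (correlation of deviations 0.009 and 0.027), and the replicate block changed no other count of calls. The other 120 values of this kind moved by less than 1.5 times (counts) or by less than the spread between replicates, but the AMPKα1 median of interval APSs also took the negative sign without a count filter (-0.0014) and with the replicate block (-0.02). The alternatives for the Myo10 interaction, for the role lists and for summed reads without the leading site were chosen after seeing the data.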
